A study of Mus musculus with 12 samples.

Results

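A set of 47 genes stood far higher in Mettl3-knockout (KO) than in wild-type (WT) E14 mouse embryonic stem cells, both when the cells were paused and when they grew. Members were taken from the deposited table of log2 values normalised to cell number, which has 14495 rows. The KO mean had to exceed the WT mean by at least 4 on the log2 scale in paused cells and also in growing cells. This left 53 genes, which is 0.366% of the rows, and dropping 4 Y-linked genes and 2 symbols that start with Gm or end with Rik left the 47. The difference reached 4 in 1.27% of rows in paused cells and in 0.835% in growing cells, and it was -4 or lower in both conditions in 0.0552%. Because KO against WT chose the members, their KO and WT values are a description and carry no test.

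The 12 libraries of polyadenylated RNA fall into 4 groups of 3: KO paused, WT paused, KO FBS and WT FBS. All cells were E14, a feeder-free mouse embryonic stem cell line here grown on gelatin with serum and LIF. FBS cells received nothing further. Paused cells had also been held for 2 weeks in 200 nM INK128, an inhibitor of the growth-controlling kinase mTOR, which brings stem cells into a dormant state. Neither the number of knockout clones nor the targeted stretch of Mettl3 is stated in the labels, and nothing there says that replicates were separate cultures, so p-values measure the spread between these libraries only.

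Mettl3 is the enzyme that methylates adenosines of messenger RNA to m6A, a mark that shortens the life of many transcripts. Embryonic stem cells transcribe pluripotency genes strongly and hold most regulators of later lineages at very low levels, and many of those regulators have promoters rich in CpG that are bound by Polycomb complexes. Several of the 47 genes are such regulators, and the others encode matrix proteins, adhesion molecules, receptors and enzymes of differentiated tissues.

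Library totals ran between 10615548 and 39566713 counts. Mettl3 itself stood at 30.1 ± 1.31 CPM (counts per 1000000, with library sizes scaled by TMM) in KO paused cells and 35.9 ± 2.85 CPM in WT paused cells, and at 27.2 ± 1.61 CPM in KO FBS cells and 33.9 ± 3.17 CPM in WT FBS cells (SD, n = 3 each). With the targeted stretch unknown, a count over the whole gene does not check the deletion. The dropped Y-linked genes (Uty, Kdm5d, Eif2s3y and Ddx3y) had 593 to 3124 counts in each KO library and 0 to 7 in each WT library, so KO and WT cells differed in Y-chromosome RNA as well, and the effect of that difference cannot be told apart from the effect of Mettl3. WT FBS replicate 1 stood apart. Over 9135 genes its log2 CPM deviated from the mean of the other two libraries of its group with an SD of 0.609, against 0.102 to 0.344 for the other 11 libraries. It held the lowest WT FBS CPM for 21 of the 47 genes, against 9 and 4 for replicates 2 and 3. The share over all genes was not counted. Its total was 12027770 counts, against 39566713 and 30643409 for replicates 2 and 3, and a shallower library gives 0 counts more often. Without WT FBS replicate 1, the rule took 46 genes, 40 of them among the 47. Leaving out KO FBS replicate 1 or 2 moved the number further, to 57 and 33.

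Over the members, the median KO minus WT difference was 4.87 in paused cells (range 4.02 to 9.09) and 4.69 in FBS cells (range 4.004 to 8.08). Over all rows of the table the medians were 0.48 in paused cells and -0.01 in FBS cells. The deposited values had 0.5 added to each count, so a difference against libraries at 0 depends on that constant. With members at 0 in a WT group set to a floor of 3 counts over that group, the medians were 4.67 in paused cells and 4.64 in FBS cells. The difference was the larger in paused cells for 24 genes and in FBS cells for 23. At the edge of the rule, Pcdh18 (6.13 paused, 4.02 FBS), Pou3f2 (4.017 and 4.197) and Fam83b (4.24 and 4.004) lay just inside, and Sox18 (3.99 and 4.83), Gfra3 (6.39 and 3.98) and Krt20 (3.94 and 4.68) just outside.

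**Figure D1:**
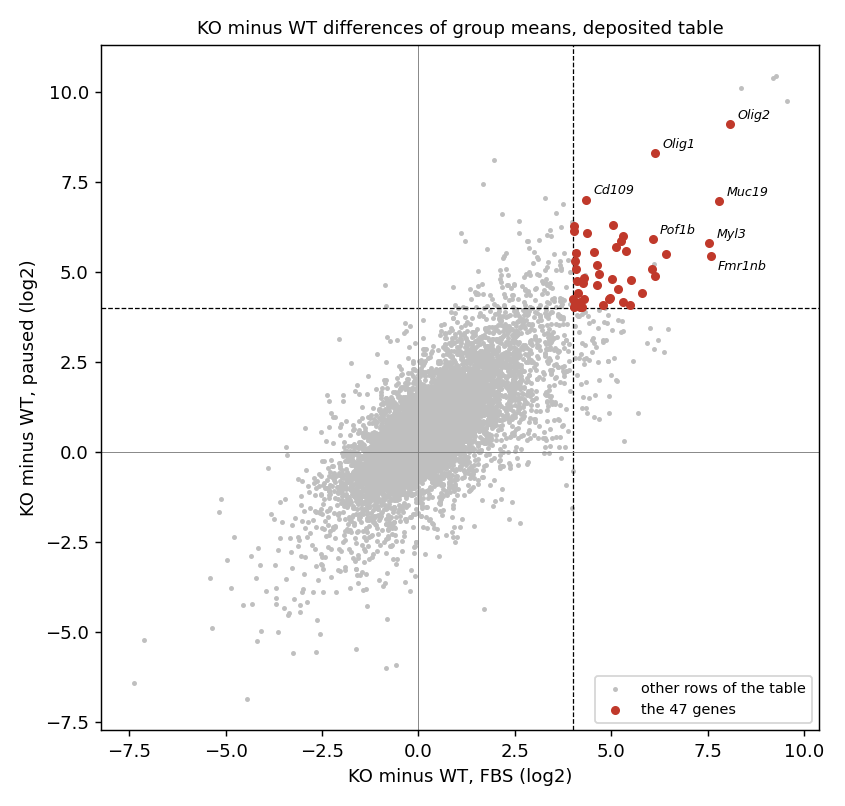
KO minus WT difference of the group means (log2, deposited table) in FBS cells on the x axis and in paused cells on the y axis, with 1 point per row of the table and the 47 genes in red. Dashed lines mark the difference of 4 used to choose the members. The red points start at the dashed lines and reach 9.09 for Olig2, and the 4 grey points beyond it are the dropped Y-linked genes.

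How far the genes were silent in WT cells varied. In KO cells the members had 140 to 62240 counts over the 6 libraries (median 474), against 0 to 1520 counts over the 6 WT libraries (median 13). For 35 genes every WT library stayed under 1 CPM, for 23 the mean WT level was under 0.1 CPM, and 18 had 0 counts in at least 3 of the 6 WT libraries. Over a whole WT group, 9 genes had 0 counts in WT paused cells and 3 had 0 counts in WT FBS cells. The WT paused libraries held 11988239, 10615548 and 22780103 counts, and the WT FBS libraries 12027770, 39566713 and 30643409. With depths this unlike, the numbers at 0 do not compare the conditions. The shares of all rows at these WT levels were not counted. For 6 genes (Pof1b, Eno1b, Thbs1, Shroom4, Klhl13 and Slc40a1) the mean WT level was 1 CPM or more, so "switched on" does not describe them. In KO cells 30 genes reached 1 CPM in all 6 libraries. For all 47 the lowest KO value lay above the highest WT value. The rule favours such a gap, and the share of all rows that show it was not counted.

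**Figure D2:**
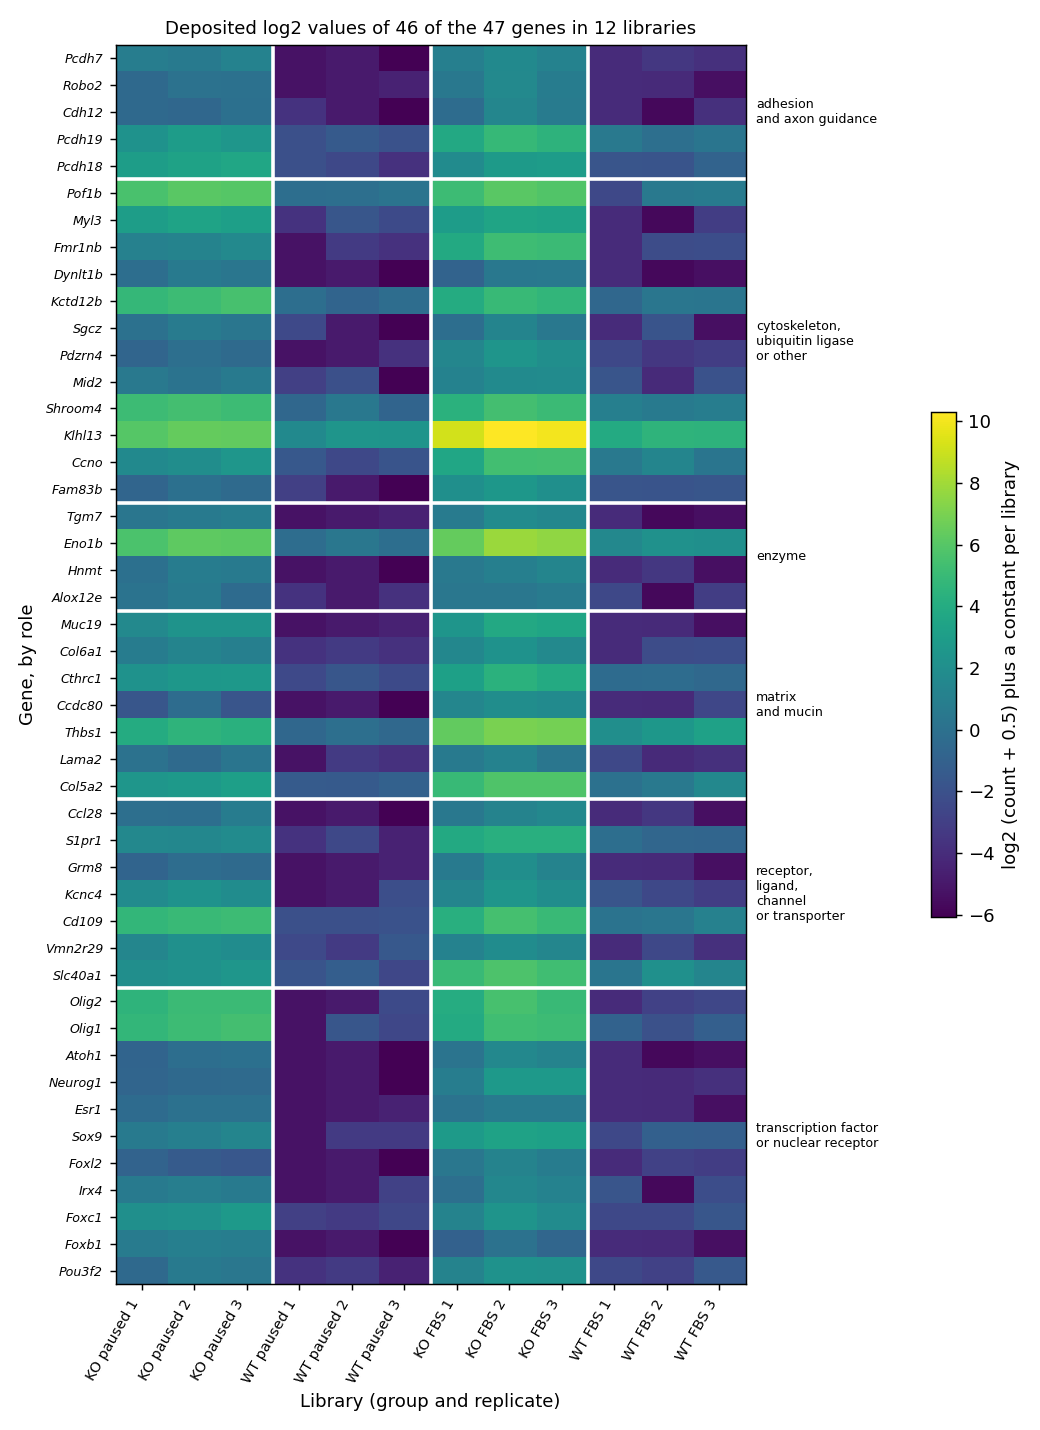
Deposited log2 values of 46 of the 47 genes (vertical axis, grouped by role) in each of the 12 libraries (horizontal axis). The colour is the log2 of the count plus 0.5 plus a constant per library. The KO paused and KO FBS columns are lighter than the WT columns beside them in every line, and Klhl13 in KO FBS is the brightest.

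Of the 47 genes, 12 encode transcription factors or nuclear receptors. The largest differences of all belonged to Olig2, a basic helix-loop-helix factor of oligodendrocyte and motor neuron precursors (chromosome 16, 91225457 to 91228677, plus strand; all positions are on GRCm38). Olig2 stood at 31.1, 34.7 and 37.4 CPM in KO paused libraries, against 0, 0 and 0.271 CPM in WT paused libraries. In FBS it stood at 19.15, 24.9 and 22.5 CPM in KO libraries, against 0, 0.0855 and 0.105 CPM in WT libraries. All 6 WT libraries together held 12 reads of it. The KO to WT ratio of scaled counts was 251 in paused cells (95% interval 115 to 685) and 276 in FBS cells (127 to 753), and these intervals cover counting error only, as do all intervals and floors given here.

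Olig1, the neighbouring factor of the same family, lies 41.1 kb from Olig2 and had 28 WT reads in all. It stood at 35.1, 35.8 and 45.8 CPM in KO paused libraries, against 0, 0.372 and 0.226 CPM in WT paused libraries. In FBS it stood at 17.4, 20.8 and 23.8 CPM in KO libraries, against 0.385, 0.171 and 0.316 CPM in WT libraries. Both Olig genes were high in every KO library and near 0 in every WT library. No other of the 10 measured genes around the pair exceeded a difference of 2.22 in paused or 1.66 in FBS cells.

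The set holds 2 further basic helix-loop-helix factors. Neurog1, a proneural factor of sensory ganglia (chromosome 13, 56250478 to 56252163, minus strand), had 16, 15 and 27 counts in KO paused libraries and 0 in each WT paused library, which is at least 11.2-fold higher when the WT group is set to 3 counts. In FBS it had 48, 101 and 147 counts in KO libraries, against 0, 1 and 1 in WT libraries. Atoh1, a factor of inner-ear hair cells and cerebellar granule cells, had 15, 19 and 35 counts in KO paused libraries and 30, 44 and 50 in KO FBS libraries. All 6 WT libraries had 0 counts of Atoh1, so it was at least 13.3-fold higher in paused and at least 36.8-fold higher in FBS KO cells.

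The promoters of Olig2 and Neurog1 are shown because both genes were near 0 in WT cells, while pausing moved them in opposite directions on the relative scale. They are the bases before the transcription start that RefSeq gives on GRCm38.p6, and they end sooner where GENCODE places the start earlier, written 5′ to 3′ on the strand of the gene with each CpG in capitals. The windows are chr16:91225300-91225456 for Olig2, with 14 CpG in 157 bases, and chr13:56252181-56252430 on the minus strand for Neurog1, with 29 CpG in 250 bases.
Olig2: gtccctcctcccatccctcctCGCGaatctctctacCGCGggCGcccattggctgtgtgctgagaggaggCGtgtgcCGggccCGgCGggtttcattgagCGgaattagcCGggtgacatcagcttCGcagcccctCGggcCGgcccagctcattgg
Neurog1: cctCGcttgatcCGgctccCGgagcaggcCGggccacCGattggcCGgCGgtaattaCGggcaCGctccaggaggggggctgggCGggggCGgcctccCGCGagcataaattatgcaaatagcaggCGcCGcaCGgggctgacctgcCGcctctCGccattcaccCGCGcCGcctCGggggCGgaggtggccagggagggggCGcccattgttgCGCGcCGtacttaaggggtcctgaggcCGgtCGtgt

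The forkhead factors in the set were low in absolute terms. Foxc1, a factor of mesenchyme and vessels, had 112, 100 and 244 counts in KO paused libraries, against 2, 1 and 5 in WT paused libraries, and 61, 79 and 75 counts in KO FBS libraries, against 1, 4 and 6 in WT FBS libraries. Foxb1, a factor of the developing hypothalamus, had 44, 42 and 65 counts in KO paused libraries and 13, 16 and 13 in KO FBS libraries, while the 6 WT libraries held 1 read. Foxl2, the ovarian factor, was lower still, at 14, 8 and 11 counts in KO paused libraries and 35, 35 and 37 in KO FBS libraries, against 5 reads in all WT libraries.

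Sox9 (a regulator of cartilage and testis), Pou3f2 (a neural POU factor), Irx4 (a factor of the heart ventricle) and Esr1 (the oestrogen receptor alpha) also belong to the group, with differences of 4.02 to 5.07 in paused and 4.09 to 5.01 in FBS cells. Pou3f2 had 19, 34 and 47 counts in KO paused libraries, against 1 in each WT paused library, and 61, 73 and 99 in KO FBS libraries, against 1, 3 and 7 in WT FBS libraries.

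Matrix and mucin genes gave 7 members. Muc19, a gel-forming mucin (chromosome 15, 91838326 to 91934555, plus strand, annotated as a processed transcript), had 83, 107 and 177 counts in KO paused libraries and 145, 209 and 249 in KO FBS libraries, while the 6 WT libraries held 2 reads in all. Thbs1, the secreted glycoprotein thrombospondin, had the highest CPM per kb of this group in KO cells. It stood at 20.8, 24.4 and 21.4 CPM in KO paused libraries, against 1.17, 1.21 and 0.994 CPM in WT paused libraries, and at 93.8, 68.1 and 80.8 CPM in KO FBS libraries, against 3.18, 4.56 and 7.20 CPM in WT FBS libraries. Its ratio was 20.3 in paused cells (interval 15.2 to 27.8) and 14.9 in FBS cells (13.4 to 16.5). The fibrillar collagen gene Col5a2, the collagen VI gene Col6a1, the laminin chain gene Lama2 and the secreted factors Cthrc1 and Ccdc80 had differences of 4.08 to 4.67 in paused and 4.195 to 5.32 in FBS cells. Ccdc80 had 8, 17 and 10 counts in KO paused libraries and 0 in each WT paused library, and 72, 58 and 72 in KO FBS libraries, against 0, 1 and 3 in WT FBS libraries.

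Adhesion and axon guidance gave 5 members: the protocadherins Pcdh7, Pcdh18 and Pcdh19, the cadherin Cdh12 and the Slit receptor Robo2. Pcdh18 stood at 10.97, 10.3 and 13.2 CPM in KO paused libraries, against 0.389, 0.186 and 0.0903 CPM in WT paused libraries. In FBS it stood at 3.95, 3.78 and 5.49 CPM in KO libraries, against 0.193, 0.200 and 0.387 CPM in WT libraries. The other 4 genes differed by 4.41 to 6.30 in paused and 4.14 to 5.505 in FBS cells. Pcdh7 had no read in WT paused cells.

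Receptors, ligands, channels and transporters gave 7 members. Cd109, a membrane-anchored protein that binds TGF-beta, stood at 35.9, 32.1 and 37.8 CPM in KO paused libraries, against 0.389, 0.279 and 0.361 CPM in WT paused libraries, a ratio of 102 (interval 62.0 to 183). In FBS it stood at 21.3, 23.1 and 22.4 CPM in KO libraries, against 0.867, 0.941 and 1.62 CPM in WT libraries, a ratio of 18.8 (15.1 to 23.5). Slc40a1, the iron exporter ferroportin, showed the reverse order of levels. It stood at 5.39, 4.70 and 6.19 CPM in KO paused libraries, against 0.487, 0.559 and 0.226 CPM in WT paused libraries, and at 36.8, 28.04 and 26.3 CPM in KO FBS libraries, against 0.963, 3.34 and 1.86 CPM in WT FBS libraries. In CPM, Cd109 was thus highest in KO paused cells and Slc40a1 in KO FBS cells. In the deposited log2 values, normalised to cell number, the KO means of Cd109 were about equal, at 4.96 in paused and 4.91 in FBS cells. The chemokine gene Ccl28 had 25, 19 and 61 counts in KO paused libraries and 36, 36 and 64 in KO FBS libraries, against 2 reads in all WT libraries. The sphingosine-1-phosphate receptor gene S1pr1, the glutamate receptor gene Grm8, the potassium channel gene Kcnc4 and the vomeronasal receptor gene Vmn2r29 differed by 4.26 to 6.07 in paused and 4.38 to 5.80 in FBS cells. Vmn2r29 had 72, 97 and 133 counts in KO paused libraries, against 3, 1 and 11 in WT paused libraries, and 60, 54 and 58 in KO FBS libraries, against 0, 4 and 1 in WT FBS libraries.

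Enzymes gave 4 members: the enolase gene Eno1b, the histamine methyltransferase gene Hnmt, the transglutaminase gene Tgm7 and the lipoxygenase gene Alox12e. Tgm7 had 34, 33 and 64 counts in KO paused libraries and 43, 53 and 61 in KO FBS libraries, and the 6 WT libraries held 1 read. Hnmt had 26, 37 and 54 counts in KO paused libraries and 38, 30 and 55 in KO FBS libraries, against 2 reads in all WT libraries. Eno1b stood at 65.1, 76.1 and 77.8 CPM in KO paused libraries, against 1.56, 1.77 and 1.36 CPM in WT paused libraries, and at 96.8, 118.9 and 127.7 CPM in KO FBS libraries, against 2.41, 3.39 and 3.09 CPM in WT FBS libraries. Its identity is uncertain. Of 1747 bases of its transcript, 1736 align to Eno1 with 99.5% identity, so its reads and those of Eno1 cannot be kept apart. Another copy, Gm4735, aligns over 1302 bases with 99.8% identity. Eno1 was counted at 3 to 16 reads per library in KO paused, 4 to 21 in WT paused, 0 to 10 in KO FBS and 3 to 52 in WT FBS cells. Its KO minus WT difference was -1.02 in paused and -2.66 in FBS cells, opposite in sign to that of Eno1b. A shift of reads between the copies was not tested.

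The last 12 members are a mixed group of cytoskeletal, ubiquitin ligase and other genes. Klhl13, an adaptor of Cul3 ubiquitin ligases (chromosome X, 23219271 to 23365082, minus strand), had the most reads of the 47. It stood at 84.1, 85.4 and 91.2 CPM in KO paused libraries, against 6.04, 7.35 and 7.86 CPM in WT paused libraries, a ratio of 12 (interval 10.7 to 13.5). In FBS it stood at 644, 662 and 701 CPM in KO libraries, against 12.3, 17.4 and 16.3 CPM in WT libraries, a ratio of 41.2 (38.9 to 43.7). The groups did not overlap, and WT cells had a measurable level in every library.

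Pof1b, an actin-binding protein (chromosome X, 112638431 to 112698651, minus strand), stood at 63.1, 68.3 and 69.1 CPM in KO paused libraries, against 1.66, 1.21 and 1.72 CPM in WT paused libraries. In FBS it stood at 40.1, 36.2 and 39.0 CPM in KO libraries, against 0.0963, 1.08 and 1.23 CPM in WT libraries. Fmr1nb, a testis gene beside Fmr1, had 58, 51 and 112 counts in KO paused libraries, against 0, 1 and 2 in WT paused libraries, and 390, 565 and 723 in KO FBS libraries, against 0, 5 and 4 in WT FBS libraries. Myl3, a myosin light chain of ventricle and slow muscle, had 219, 230 and 324 counts in KO paused libraries, against 1, 4 and 6 in WT paused libraries, and 207, 168 and 216 in KO FBS libraries, against 0, 0 and 2 in WT FBS libraries. Myl3 shares 95 exonic bases with Pth1r on the other strand, which had 3234 reads over the KO libraries and 234 over the WT libraries, and the strand setting of the counting is not given in the sources used here.

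The dynein light chain gene Dynlt1b had 24, 34 and 45 counts in KO paused libraries, 14, 21 and 31 in KO FBS libraries and 0 in all 6 WT libraries. Its 771-base transcript matches Dynlt1a, Dynlt1c and Dynlt1f with 98.8% to 99.2% identity, so the counting could split these copies. Vmn2r29 likewise has many near-identical copies. Kctd12b, a BTB-domain protein, stood at 36.6, 35.9 and 51.1 CPM in KO paused libraries, against 1.66, 0.745 and 1.27 CPM in WT paused libraries, and at 18.3, 16.4 and 18.1 CPM in KO FBS libraries, against 0.482, 0.941 and 0.878 CPM in WT FBS libraries. Shroom4, an actin-binding protein, stood at 45.7, 41.7 and 38.4 CPM in KO paused libraries, against 1.17, 1.86 and 0.858 CPM in WT paused libraries, and at 23.7, 22.5 and 22.8 CPM in KO FBS libraries, against 1.54, 1.197 and 1.34 CPM in WT FBS libraries. Both genes were higher in KO than in WT libraries with no overlap, in a set that this contrast chose. In CPM both stood higher in KO paused than in KO FBS libraries. On the per-cell scale given below, neither rise passed the test (log2 fold changes 0.49 and 0.12, edgeR adjusted p = 0.192 and 0.776). Sgcz (a sarcoglycan), Pdzrn4, Mid2 (a ubiquitin ligase), Ccno (a cyclin of multiciliated cells) and Fam83b differed by 4.03 to 4.82 in paused and 4.004 to 4.93 in FBS cells. Fam83b had 16, 21 and 26 counts in KO paused libraries, against 2, 0 and 0 in WT paused libraries, and 112, 89 and 92 in KO FBS libraries, against 2, 7 and 6 in WT FBS libraries.

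The windows of Klhl13 (chrX:23365083-23365332, minus strand, 12 CpG) and Pof1b (chrX:112698652-112698901, minus strand, 3 CpG) are shown to set genes with fewer CpG beside Olig2 and Neurog1. They are written as before, with CpG in capitals.
Klhl13: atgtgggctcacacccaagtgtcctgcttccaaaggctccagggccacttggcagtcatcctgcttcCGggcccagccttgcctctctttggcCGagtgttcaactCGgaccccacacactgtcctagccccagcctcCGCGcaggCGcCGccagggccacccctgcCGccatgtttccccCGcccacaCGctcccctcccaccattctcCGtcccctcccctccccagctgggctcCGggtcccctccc
Pof1b: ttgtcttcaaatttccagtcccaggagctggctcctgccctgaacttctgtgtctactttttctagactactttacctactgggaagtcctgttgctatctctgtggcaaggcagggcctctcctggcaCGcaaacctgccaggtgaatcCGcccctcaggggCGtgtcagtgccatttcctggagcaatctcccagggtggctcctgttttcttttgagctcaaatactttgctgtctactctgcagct

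Per kilobase of exon, mean levels in KO cells ran between 0.0737 CPM per kb for Robo2 and 88.9 CPM per kb for Klhl13. After Klhl13 came Eno1b at 49.9, Olig1 at 13.8, Pof1b at 13.5, Fmr1nb at 12.2 and Olig2 at 11.2 CPM per kb. The median over all rows of the table was 4.16 CPM per kb, and 12 of the 47 genes lay above it. The majority of the members lay below the typical gene of the table even in KO cells.

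The rule did not compare KO paused with KO FBS cells, so this comparison could be tested. Both KO groups had to stand far above WT, however, so the calls hold for genes chosen in that way. The comparison asks how the genes behave in KO cells when mTOR is inhibited. On the relative scale, where each library is scaled to its own genes, 11 of the 47 genes rose and 21 fell with pausing, and 15 did not pass the test (edgeR quasi-likelihood test, Benjamini-Hochberg adjustment over 15281 genes, threshold 0.05). Over all genes tested, 23.3% rose and 19.4% fell. The median log2 fold change was -0.39 over the members, with a range of -2.94 to 1.98, and 0.03 over all genes. The median is over members chosen for being high in KO cells in both conditions and has no test of its own.

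Among the 12 transcription factors, 4 rose and 6 fell on the relative scale. Foxb1 rose the most of all 47 genes, with a log2 fold change of 1.98 ± 0.25 (SE, edgeR adjusted p = 0.000134), at 2.15, 1.95 and 1.98 CPM in KO paused libraries against 0.558, 0.565 and 0.415 CPM in KO FBS libraries. Foxc1 rose by 1.18 ± 0.20 (edgeR adjusted p = 0.000561), with 5.48, 4.65 and 7.43 CPM in KO paused against 2.62, 2.79 and 2.39 CPM in KO FBS libraries. Neither group of values overlapped its counterpart.

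Olig1 rose by 0.91 ± 0.18 (edgeR adjusted p = 0.00175), with 35.1 to 45.8 CPM in KO paused against 17.4 to 23.8 CPM in KO FBS libraries. Olig2 rose by 0.63 ± 0.19 on the relative scale (edgeR adjusted p = 0.0174, against -0.16 on the per-cell scale), and this call was lost (edgeR adjusted p = 0.0558 to 0.0776) without KO paused replicate 2 or 3 or KO FBS replicate 1 or 3. Neurog1 fell by 2.16 (SE 0.31, edgeR adjusted p = 0.000309). Neurog1 stood at 0.783, 0.698 and 0.823 CPM in KO paused libraries, against 2.06, 3.57 and 4.69 CPM in KO FBS libraries. Foxl2, Sox9, Pou3f2 and Atoh1 also fell, with log2 fold changes of -1.52, -1.51, -1.07 and -0.71. The Atoh1 call (edgeR adjusted p = 0.0465) was lost without any single KO library, with no filter and with total counts in place of TMM (edgeR adjusted p = 0.0576 to 0.144), and with DESeq2 (adjusted p = 0.0874). Esr1 and Irx4 were at 0.03 and 0.43 and did not pass the test.

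No matrix or mucin gene rose, and 5 of the 7 fell: Ccdc80 (-2.35), Col5a2 (-2.06), Thbs1 (-1.86), Cthrc1 (-0.76) and Muc19 (-0.57). Thbs1 stood at 20.8 to 24.4 CPM in KO paused against 68.1 to 93.8 CPM in KO FBS libraries. The Muc19 call (edgeR adjusted p = 0.0241) was lost without KO paused replicate 1 or 2 or KO FBS replicate 2 or 3, or with total counts in place of TMM (edgeR adjusted p = 0.0644 to 0.107). Col6a1 and Lama2, at -0.15 and -0.09, did not pass.

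Of the adhesion genes, Pcdh18 rose by 1.38 ± 0.21 (edgeR adjusted p = 0.000253) and Pcdh19 fell by 1.197 (SE 0.14, edgeR adjusted p = 2.95e-05), while Pcdh7, Robo2 and Cdh12 did not pass. Of the receptors and transporters, Cd109 rose by 0.66 ± 0.14 on the relative scale (edgeR adjusted p = 0.00197, against -0.11 on the per-cell scale) and Vmn2r29 by 0.94, and Vmn2r29 did not pass without KO FBS replicate 2 or 3 (edgeR adjusted p = 0.0507 and 0.0514). Slc40a1, S1pr1 and Grm8 fell, with log2 fold changes of -2.48, -1.88 and -1.16, and Ccl28 and Kcnc4 did not pass. Eno1b (-0.65) was the enzyme gene that fell, and Hnmt, Tgm7 and Alox12e did not pass.

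In the mixed group, Klhl13 fell by 2.94 (SE 0.12, edgeR adjusted p = 4.21e-08) and Fmr1nb fell by 2.78 (SE 0.21, edgeR adjusted p = 1.22e-06), the lowest fold changes of the 47. Ccno, Fam83b and Pdzrn4 fell as well, with log2 fold changes of -2.14, -2.08 and -1.75. Kctd12b rose by 1.23 ± 0.17 (edgeR adjusted p = 0.000118), Shroom4 by 0.87, Pof1b by 0.80 and Dynlt1b by 0.80. The Dynlt1b call (edgeR adjusted p = 0.0423) was lost without KO FBS replicate 1 or 2 and without any single KO paused library. It was also lost without WT paused replicate 3 and with no filter (edgeR adjusted p = 0.0513 to 0.137 over all of these), and with DESeq2 (adjusted p = 0.112). Myl3, Sgcz and Mid2 did not pass. Myl3 (0.53, edgeR adjusted p = 0.0535) and the potassium channel gene Kcnc4 (0.65, edgeR adjusted p = 0.0644) lay near the threshold. DESeq2 called both higher (adjusted p = 0.0362 and 0.0197), and so did edgeR under 7 other settings for Myl3 (adjusted p = 0.0038 to 0.0461) and 6 for Kcnc4 (0.00186 to 0.0483), among them the fit of the KO samples alone and total counts in place of TMM.

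**Figure D3:**
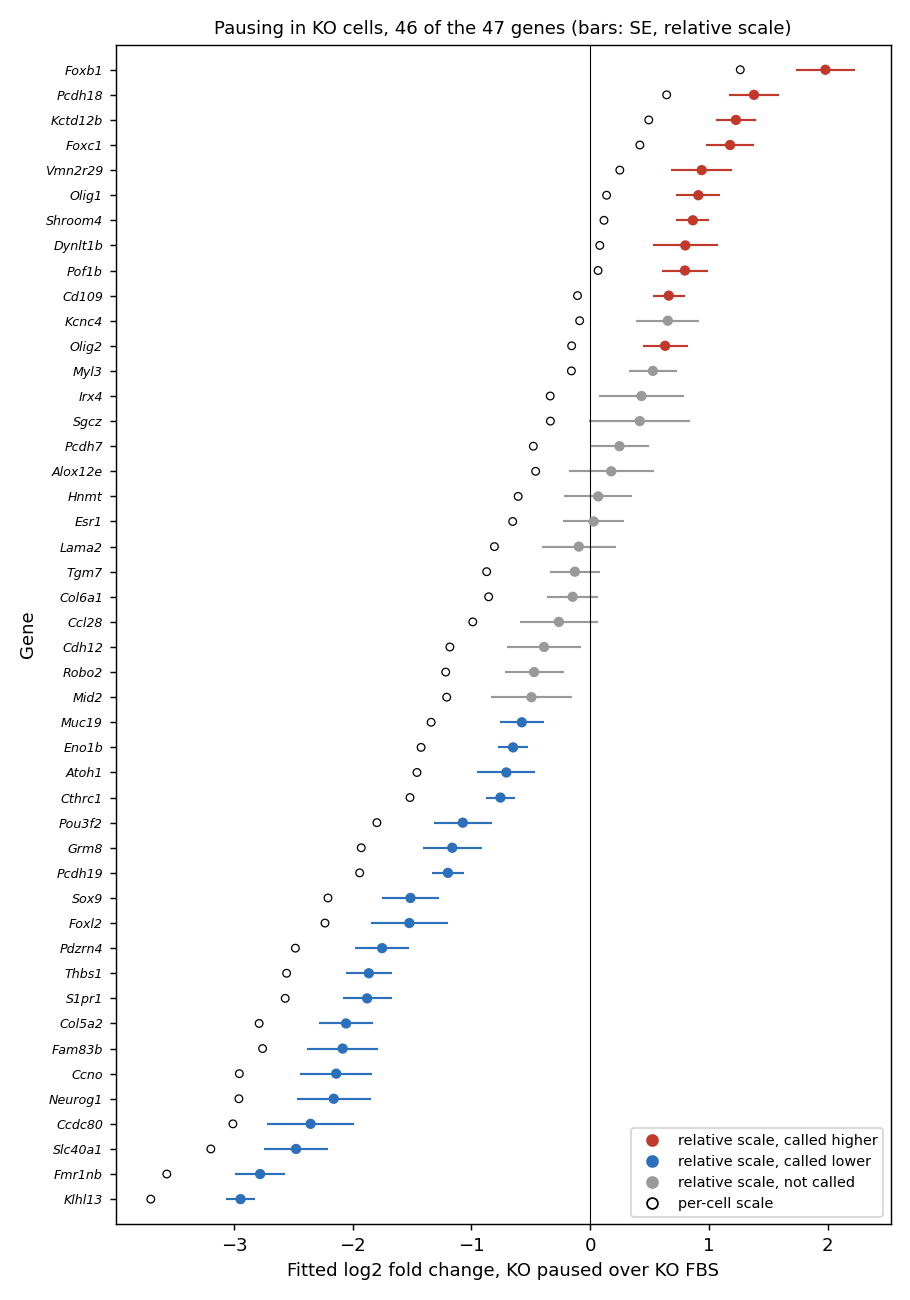
Fitted log2 fold change of KO paused over KO FBS cells (horizontal axis) for 46 of the 47 genes, in order of size (vertical axis). Filled points with SE bars are the relative scale, in red for genes called higher, blue for genes called lower and grey for the rest, and open circles are the per-cell scale. The open circles lie to the left of the filled points for every gene, and Foxb1 at 1.27 is the open circle farthest to the right.

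On the per-cell scale, which uses the ERCC spike-in RNA added to the RNA of equal numbers of cells, most genes of the genome were lower in KO paused than in KO FBS cells, with a median log2 fold change of -0.72 over all genes. The spike-in was added after RNA extraction, so losses before that step are not corrected, and less RNA per cell cannot be told apart from fewer cells in the lysate. On this scale 26 of the 47 genes fell and 1 rose, with a median of -1.18, while 45.7% of all genes fell and 2.45% rose. Gene reads per ERCC read were 36.5, 40.3 and 38.2 in KO paused replicates 1 to 3. In KO FBS replicates 1 to 3 they were 47.4, 93.5 and 64.6, so the size of the common fall rests on libraries that differ widely. All 21 genes that fell on the relative scale fell on the per-cell scale too. ERCC scaling shifts every gene of a library alike, here downward (median over all genes 0.03 relative and -0.72 per cell). This overlap was therefore largely fixed in advance. Foxb1 rose by 1.27 per cell (edgeR adjusted p = 0.0116), which did not pass without KO FBS replicate 3. For 10 genes the sign differed between the scales, among them Olig2 (0.63 relative, -0.16 per cell) and Cd109 (0.66 and -0.11).

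**Figure D4:**
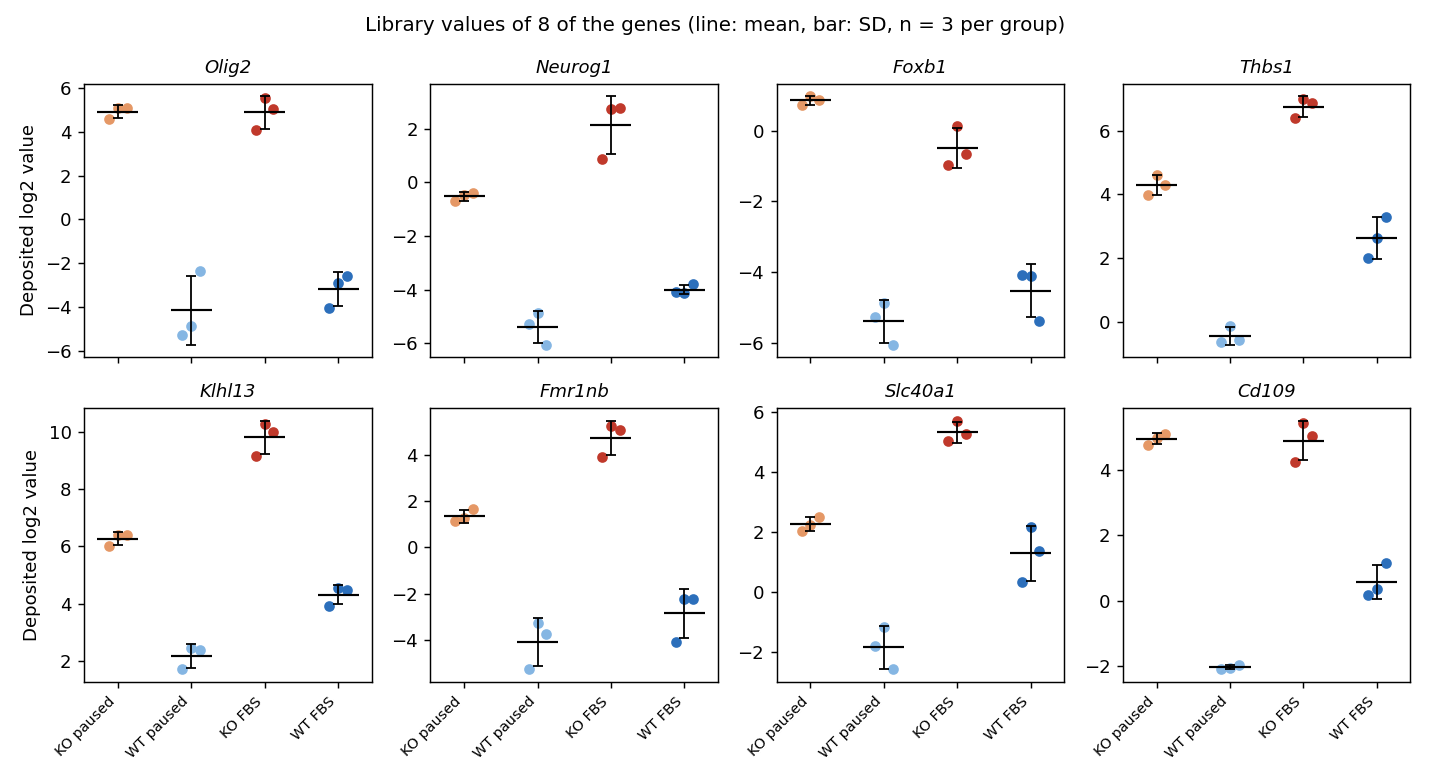
Deposited log2 values (vertical axis) of 8 genes in the libraries of KO paused, WT paused, KO FBS and WT FBS cells, with 1 point per library, a line at the mean and a bar of SD (n = 3 per group). Olig2 and Cd109 in KO cells sit at about the same level in both conditions, Neurog1, Thbs1, Klhl13, Fmr1nb and Slc40a1 sit lower in KO paused than in KO FBS cells, and Foxb1 sits higher.

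In WT cells 14 of the 47 genes had at least 30 reads over the 6 libraries. Of these, 8 had fewer than 30 reads in WT paused cells and 0 had fewer than 30 in WT FBS cells, so a minimum on the sum favours genes that are lower in WT paused cells, and the counts over the 14 describe them without supporting a direction for the 47. On the relative scale 0 rose and 10 fell (edgeR quasi-likelihood test, adjusted over 15281 genes), while 18% of all genes rose and 20.2% fell. At an unadjusted p under 0.05 edgeR also found 0 higher, and DESeq2 called 1 of the 14 higher (Pof1b). Without WT paused replicate 3 the count that fell was 6. With no minimum, a setting chosen after seeing the data, 2 of the 47 rose and 10 fell on the relative scale. The genes that rose were Myl3, with 11 reads in WT paused and 2 in WT FBS cells (log2 fold change 2.996 ± 0.82, SE, edgeR adjusted p = 0.0132), and Vmn2r29, with 15 and 5 reads (2.25 ± 0.67, edgeR adjusted p = 0.0203). On the per-cell scale 12 of the 14 fell and 0 rose, and with no minimum 18 of the 47 fell, while 68.8% of all genes fell and 1.15% rose. Of the 14 genes, 9 fell in both genotypes on the relative scale, among them Klhl13, Slc40a1, Ccno, Col5a2, S1pr1, Thbs1, Pcdh19 and Eno1b. The share of all genes that fell in both genotypes was not counted, so the 9 are a description only.

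Klhl13 fell by 1.12 in WT cells (SE 0.13, edgeR adjusted p = 9.41e-05), Slc40a1 by 2.57 (SE 0.48, edgeR adjusted p = 0.00166) and Thbs1 by 2.23 (SE 0.30, edgeR adjusted p = 0.000196). Cd109 fell by 1.76 in WT cells (SE 0.31, edgeR adjusted p = 0.00121), while it rose in KO cells on the relative scale. In WT cells Cd109 stood at 0.389, 0.279 and 0.361 CPM in paused against 0.867, 0.941 and 1.62 CPM in FBS libraries. Pof1b, Kctd12b, Shroom4 and Cthrc1, at 0.69, 0.55, -0.11 and -0.86 in WT cells, did not pass the test. The difference between the pausing effects of the genotypes is made of the KO and WT differences that chose the genes and was not tested.

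The 47 genes were spread over most chromosomes, with none on chromosomes 14, 19 or Y. The X chromosome held 7 (Pof1b, Fmr1nb, Kctd12b, Mid2, Pcdh19, Shroom4 and Klhl13), which is 14.9% of the members, against 3.67% of all rows of the table. The other X-linked rows had median KO minus WT differences of 0.45 in paused and 0.09 in FBS cells, close to the medians of the whole table. Chromosomes 9 and 13 held 5 each, and chromosomes 15 and 16 held 4 each. Within 1 Mb of each other lay Olig1 and Olig2, Col5a2 and Slc40a1 on chromosome 1 (405 kb apart), and Muc19 and Pdzrn4 on chromosome 15 (462 kb apart).

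Of the 467 places given by the 5 measured genes on either side of each member, 91 (19.5%) held a gene with a difference of at least 1 in both conditions, against 12.7% of all rows. These neighbours share the contrast of the rule, so the shares are a description. Some neighbours above that mark belong to the family of the member: Col6a2 beside Col6a1, Irx2 beside Irx4, Cdh10, Cdh9 and Cdh6 beside Cdh12, and Col3a1 beside Col5a2. For 5 members (Hnmt, Dynlt1b, Neurog1, Vmn2r29 and Mid2) no such neighbour was found, and 12 members had at least 3.

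RefSeq promoter windows were matched by symbol for 31 of the 47 genes. In the 250 bases before the start, the ratio of observed to expected CpG (the count of CpG times the length, over the product of the C and G counts) had a median of 0.52 over the 31 (quartiles 0.234 and 0.752), against 0.72 over the 10859 genes of the table with a window (0.493 and 0.884). A ratio of at least 0.6 was reached by 12 of the 31 (38.7%), against 65.7% of all. The median GC content was 59.6% over the 31 and 60% over all. Of the 8 windows of transcription factors, 7 reached 0.6, with a median of 0.75, against 5 of the 23 other windows, with a median of 0.43. For Lama2, Tgm7, Myl3 and Cdh12 the RefSeq start used lies 2816 to 662187 bases from the GENCODE start of the gene.

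Of the printed genes, the whole windows of 250 bases gave ratios of 0.92 for Neurog1, 0.82 for Olig2, 0.48 for Klhl13 and 0.18 for Pof1b. Neurog1 and Olig2, which moved in opposite directions with pausing on the relative scale (the Olig2 value was -0.16 per cell), both had CpG-rich windows. Klhl13 and Pof1b had poorer ones and also moved in opposite directions on that scale. Per cell Pof1b stood at 0.067 and did not pass (edgeR adjusted p = 0.872). These windows were picked for display, and a link between CpG and pausing was not tested. Searched on both strands, TATAAA was found in 1 window of the 31 (3.23%, against 6.33% of all windows), CACGTG in 0 (8.38% of all) and CCAAT in 12 (38.7%, against 36.2% of all). The window with TATAAA is that of Olig2, and its match lies in the stretch not printed.

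**Figure D5:**
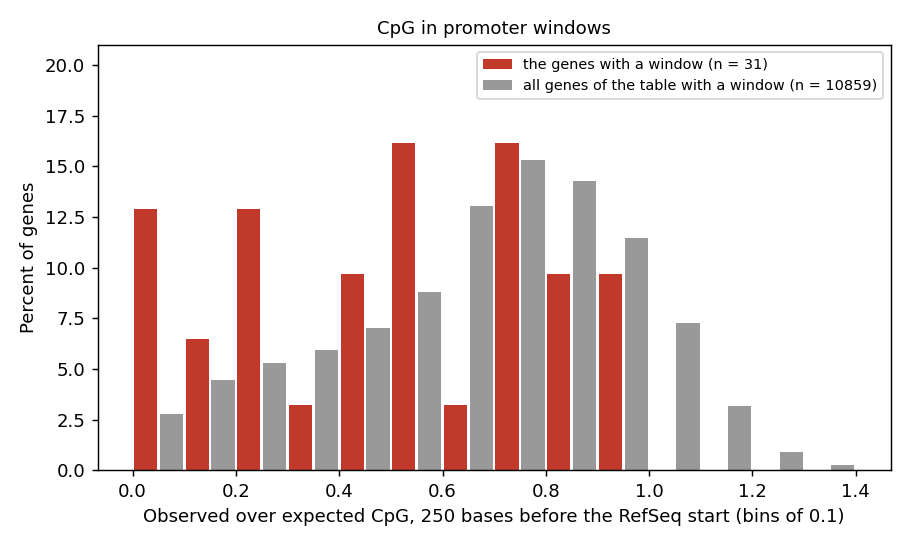
Percent of genes (vertical axis) in bins of the ratio of observed to expected CpG in the 250 bases before the RefSeq start (horizontal axis), for the 31 members with a window in red and the 10859 genes of the table with a window in grey. The red bars lie further to the left, with 38.7% of the members at 0.6 or above, against 65.7% of all genes.

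The lists of lineage markers hold 2 of the 47 genes, both neural. Of the neural markers, Olig2 and Neurog1 are members, and Neurog2 stayed under 1 CPM in every library. Of the 4 other markers tested, 3 were higher and 1 lower in KO paused than in WT paused cells, and 2 were higher and 1 lower in KO FBS than in WT FBS cells on the relative scale (27.9% and 23.9% of all genes tested in paused and 28.4% and 29.4% in FBS cells). The neural factor Pax6 stood at 20.3 ± 1.68 CPM in KO paused and 2.23 ± 0.787 CPM in WT paused cells, and at 7.72 ± 1.22 CPM in KO FBS and 2.01 ± 0.989 CPM in WT FBS cells (SD, n = 3 each). Its log2 fold change was 3.27 ± 0.30 in paused and 1.81 ± 0.28 in FBS cells (SE, edgeR adjusted p = 2.64e-06 and 0.000148). Sox1, the early neural factor, moved the other way, with 17.8 ± 6.01 CPM in KO paused and 123 ± 18.2 CPM in WT paused cells, and 0.603 ± 0.214 CPM in KO FBS and 17.3 ± 4.73 CPM in WT FBS cells (SD, n = 3 each), and log2 fold changes of -2.78 in paused and -4.85 in FBS cells (edgeR adjusted p = 1.9e-06 and 2.2e-07). Per cell the log2 fold changes kept these signs, at 3.62 in paused and 2.01 in FBS cells for Pax6 and -2.42 and -4.75 for Sox1.

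Markers of other lineages moved in both directions. Summed trophoblast markers stood at 22.9 to 25.6 CPM in KO paused and 8.67 to 10.3 CPM in WT paused libraries, and at 136 to 196 CPM in KO FBS and 18.03 to 22.2 CPM in WT FBS libraries, with Elf5 under 1 CPM throughout. Most of the sum in KO FBS cells came from the keratin genes Krt8 and Krt18, at 93.1 ± 21.6 and 40.7 ± 10.8 CPM (SD, n = 3 each). Of the 7 tested, 3 were higher in KO paused and 5 in KO FBS cells on the relative scale, and the others did not pass. The trophoblast factors Cdx2 and Eomes passed in neither condition on this scale. Per cell 5 of the 7 were higher in KO cells in each condition and 0 lower. Eomes passed per cell in paused cells (log2 fold change 1.21, edgeR adjusted p = 0.011) but not in FBS cells, and Cdx2 in neither. On the relative scale the keratin gene Krt8 had log2 fold changes of 1.59 ± 0.24 in paused and 3.53 ± 0.23 in FBS cells (SE, edgeR adjusted p = 0.000112 and 1.27e-07). Of the 6 mesoderm markers tested, 2 were higher and 1 lower in KO paused cells, and 1 was higher and 2 lower in KO FBS cells on the relative scale (2 and 1 in paused and 1 and 1 in FBS cells per cell). The endothelial and mesodermal receptor gene Kdr had log2 fold changes of 4.83 ± 0.31 and 3.57 ± 0.25 (edgeR adjusted p = 1.55e-07 and 2.61e-07), while Pdgfrb stood at -1.46 and -0.76 (edgeR adjusted p = 0.000238 and 0.00854). Of the 6 extraembryonic endoderm markers tested, 2 were higher and 2 lower in KO paused cells, and 1 was higher and 3 lower in KO FBS cells, on both scales. In FBS cells Foxa2, an endoderm factor, had a log2 fold change of 3.86, and the endoderm factors Gata4 and Gata6 had -3.07 and -3.01 (edgeR adjusted p = 6.21e-07, 4.57e-07 and 2.27e-06). Of the 8 fibroblast markers, Postn, Lum and Dcn stayed under 1 CPM in every library, and the list summed to 5.63 to 7.19 CPM in KO paused and 1.96 to 2.73 CPM in WT paused libraries, and to 16.7 to 22.1 CPM in KO FBS and 9.47 to 16.5 CPM in WT FBS libraries. Of the 5 tested, 3 were higher and 1 lower in KO cells in each condition on the relative scale, the lower one being Pdgfra (-1.42 in paused and -2.16 in FBS cells, edgeR adjusted p = 0.0405 and 0.000264), which did not pass per cell in paused cells (adjusted p = 0.0858). The part of other cell types in the levels of the 47 genes was not tested.

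The label of the cells was met: the 8 stem cell markers summed to 2472 to 2729 CPM in KO paused and 3988 to 4407 CPM in WT paused libraries, and to 1956 to 2345 CPM in KO FBS and 3313 to 3882 CPM in WT FBS libraries. On the relative scale 6 of the 8 were lower in KO cells in each condition, and on the per-cell scale 2 were lower in paused and 3 in FBS cells, where 5.62% and 9.81% of all genes were lower. Over all 13 lists, 128 genes outside the members were tested. Of these, 38 were higher and 42 lower in KO paused than in WT paused cells, and 46 were higher and 39 lower in KO FBS than in WT FBS cells. With ERCC scaling the numbers lower were 25 in paused and 23 in FBS cells. No gene of the lists of imprinted genes, germline genes silenced by DNA methylation, two-cell-stage genes or interferon response genes was among the 47. These lists had 37, 28, 3 and 10 genes tested, and the rule took 0.366% of all rows before symbols were dropped. Lists of this size would seldom hold a member, so their lack of one says nothing about these classes.

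Among all other rows, the profiles over the 12 libraries most like the median profile of the members were those of Rnf128 (Pearson r = 0.995), Cdk14 (0.994), Apob (0.993), Timp2 (0.991) and Metrnl (0.990). Their KO minus WT differences were 2.58 to 5.00 in paused and 2.30 to 3.93 in FBS cells. The KO and WT groups that the rule set apart enter this likeness, so it is a description with no test.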

How the data were processed

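Polyadenylated RNA of 12 E14 stem cell samples was sequenced. The authors deposited raw counts per gene symbol (24421 genes and 92 ERCC rows) and a table of log2 values. For 14494 of its rows, the deposited log2 value was that of the count with 0.5 added, shifted by an amount fixed for each library. Per the submitters' processing notes, edgeR 3.32.1, Subread 1.5.0 with featureCounts, Trim Galore 0.4.0 and the build mm10 were used. Which aligner, annotation and strandedness were used is not given in the sources used here.

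The 47 genes, the lists and their roles were chosen with earlier results of these data known. The counts were fitted with edgeR 4.0.16 (with limma 3.58.1, in R 4.3.3), with robust quasi-likelihood dispersions, 4 group means and the default filter (minimum count 10, minimum total 15), which left 15281 genes. These steps were also run on simulated data with the same dispersion for all genes. The changed genes there had means over 1 CPM, so that run does not cover members below this level. Library sizes were gene totals with TMM factors (relative scale and CPM) or ERCC totals with TMM factors (per-cell scale). A gene needed 30 WT counts for a test in WT cells. Ratios have 95% intervals, and the floor was 3 counts over a group. Intervals, floors and depth cover counting error only.

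Values in every library (or, where the 6 WT libraries held 5 reads or fewer, their WT total) are given for the 12 genes with the largest smaller-of-both differences, the 8 with the most KO counts, the 6 highest and 6 lowest called pausing fold changes, list members and the 3 members just inside the edge of the rule. Genes just outside it are given by their differences. The values of 1 member and of 1 list gene are not reported here. Other members are named by role, and their values were picked after they were seen. List genes are named by low p, by a level under 1 CPM throughout or, for Krt18, Cdx2 and Eomes, after their values were seen. Positions are from GENCODE vM21 on GRCm38, matched for 14399 of 14495 rows, and promoters are from RefSeq (GRCm38.p6). Alternatives were DESeq2 1.42.0, no filter, 1 genotype only, a replicate block, other scaling, other thresholds and leaving out each library. Columns of values mapped to no sample numbered 0.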

Additional observations from a re-analysis of the deposited data

How the results depend on the processing

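With ERCC scaling in place of gene scaling, 1 gene rose with pausing in KO cells, and with gene scaling in place of ERCC scaling 11 rose. With the replicate block the per-cell number that rose was 2. Same-numbered replicates were not taken as pairs, since the correlations of their deviations from the group means were 0.27, 0.0774 and 0.223 in KO and 0.14, 0.0595 and 0.0899 in WT cells, not all over 0.1. Of the 6 samples in each genotype, 6 in KO and 5 in WT cells correlated best with their own number in the other condition, a hint from the data and not from the design. The block gave 12 higher and 21 lower on the relative scale and changed no other count by over 1.5 times. Without each library in turn, 9 to 13 genes rose and 19 to 21 fell on the relative scale in KO cells, 0 to 1 rose and 22 to 27 fell per cell, and 6 to 10 fell and 0 rose in WT cells. With no minimum of WT counts, chosen after seeing the data, 2 rose in WT cells. In WT cells DESeq2 called 1 gene higher, and the fit of WT samples alone called 6 lower. The rule took 186 genes at a difference of 3, 13 at 5, 15 from TMM-scaled log2 CPM with a prior count of 2 (median differences 3.94 paused and 4.04 FBS), 47 from group medians (34 of them members) and 33 to 57 without each library in turn (medians 4.75 to 4.99 paused and 4.59 to 4.85 FBS). List genes lower in KO cells numbered 25 paused and 23 FBS with ERCC scaling. Without each library in turn, list genes numbered 30 to 45 higher and 36 to 49 lower in paused cells, and 40 to 56 higher and 34 to 43 lower in FBS cells. In whole windows of 300 bases, 70.3% of all promoters and 41.9% of the members' reached the CpG ratio of 0.6.

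Log2 fold changes of pausing in KO cells that changed sign with ERCC scaling were those of Olig2 (-0.16), Myl3 (-0.16), Hnmt (-0.61), Pcdh7 (-0.48), Esr1 (-0.65), Kcnc4 (-0.088), Cd109 (-0.11), Sgcz (-0.33), Alox12e (-0.46) and Irx4 (-0.34). This scaling shifts every gene of a library alike. Other sign changes fell on genes that had not passed the test. Without each library in turn, the values ran between -0.13 and 0.22 for Hnmt, -0.12 and 0.17 for Esr1, -0.27 and 0.0055 for Col6a1, -0.061 and 0.44 for Alox12e and -0.32 and 0.18 for Lama2, and Esr1 stood at -0.017 with DESeq2. The cause of these was not tested. Of 799 values of single genes under settings other than ERCC scaling, 747 kept their sign and side of the threshold. Genes with few WT reads limit the precision of every ratio.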

Other observations

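Among the 5 fibroblast markers tested, 3 were higher and 1 (Pdgfra) lower in KO cells in each condition on the relative scale. Col3a1 of this list, a fibrillar collagen beside Col5a2, stood at 2.94 ± 0.348 CPM in KO paused and 0.0151 ± 0.0261 CPM in WT paused cells, and at 6.85 ± 1.01 CPM in KO FBS and 0.526 ± 0.187 CPM in WT FBS cells (SD, n = 3 each). Of the trophoblast markers, Gata3, a factor of trophoblast and inner ear, stood at 0.958 ± 0.302 CPM in KO paused and 1.46 ± 0.223 CPM in WT paused cells, and at 8.34 ± 1.54 CPM in KO FBS and 0.668 ± 0.242 CPM in WT FBS cells. Its log2 fold change in FBS cells was 3.75 ± 0.29 (SE, edgeR adjusted p = 4.52e-07), and in paused cells it did not pass the test (edgeR adjusted p = 0.0927). The difference between the conditions was not tested for Gata3.

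The m6A list gave 13 tested genes, of which 7 were higher and 2 lower in KO paused than in WT paused cells, and 6 were higher and 3 lower in KO FBS than in WT FBS cells, on the relative scale, where 27.9% of all genes were higher and 23.9% lower in paused and 28.4% higher and 29.4% lower in FBS cells. On the per-cell scale 5 were higher in KO paused and 2 in KO FBS cells, and the others did not pass. Mettl14, the partner of Mettl3 in the writer complex, stood at 39.99 ± 0.46 CPM in KO paused and 30.5 ± 0.668 CPM in WT paused cells, and at 24.98 ± 0.631 CPM in KO FBS and 40.4 ± 2.7 CPM in WT FBS cells (SD, n = 3 each).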
